A study of Mus musculus with 4 samples.

Results

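The genes described here are 9 genes of retinoid metabolism and binding, Rbp4, Adh1, Aldh1a1, Aldh1a2, Aldh1a3, Aldh1a7, Crabp1, Crabp2 and Rarb, out of 21878 genes in the mRNA table. They were chosen by name, and the 14 RefSeq transcripts listed for them were summed per gene. RNA depleted of ribosomal RNA was sequenced from C3H10T1/2, a mouse mesenchymal stem cell line derived from C3H embryos. 2 samples were untreated (replicates 1 and 2), and 2 samples (replicates 101 and 102) received 20 μM 5-AZA, or 5-azacytidine, a cytidine analogue that lowers DNA methylation, for 72 hours and were then kept for 21 days in fresh medium. For the untreated samples no source gives a time in culture, so the effects of 5-AZA and of time in culture cannot be told apart. The text on this exposure stands with all 4 samples, and the groups follow the treatment label. The study calls the samples of a group biological repeats, but no source says whether they came from separate cultures, so p-values measure only the spread between these samples, which may be technical.

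Retinoic acid is made from vitamin A. Rbp4 carries retinol in plasma, alcohol dehydrogenases such as Adh1 and short-chain dehydrogenases interconvert retinol and retinal, and the enzymes Aldh1a1, Aldh1a2 and Aldh1a3 oxidise retinal to retinoic acid. Inside the cell Crabp1 and Crabp2 bind retinoic acid, Crabp2 hands it to nuclear receptors such as Rarb, and Cyp26 enzymes remove it. The pathway is known for its roles in the patterning of the embryo and in the differentiation of mesenchymal cells, fat cells among them.

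The promoters are shown because 5-AZA acts on methylation at CpG dinucleotides and because Rarb is a textbook target of retinoic acid. RefSeq windows of 250 bases before a start (build GRCm38.p6) were found for 7 of the 9 genes, with 9 windows in all, and Aldh1a3 and Crabp2 had none. Each sequence is given 5′ to 3′ on the strand of the gene. In the windows of Crabp1 (chr9:54764498-54764747, + strand) and Adh1 (chr3:138277335-138277584, + strand) the capitals mark CpG dinucleotides. In the window of Rarb (chr14:16575477-16575726, - strand) they mark a retinoic acid response element of the DR5 type, 2 hormone receptor half-sites (each NGNTCA, with A or G as the first base and G or T as the third) in the same direction with 5 bases between them. In those of Aldh1a1 (chr19:20601718-20601967, + strand, the second of its 2 listed starts) and Aldh1a7 (chr19:20727557-20727806, - strand) they mark the longest run of bases that both share.
Crabp1: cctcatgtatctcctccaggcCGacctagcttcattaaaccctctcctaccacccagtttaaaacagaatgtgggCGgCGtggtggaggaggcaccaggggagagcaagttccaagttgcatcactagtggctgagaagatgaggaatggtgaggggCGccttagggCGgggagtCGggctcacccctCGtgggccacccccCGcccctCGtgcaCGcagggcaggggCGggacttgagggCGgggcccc
Adh1: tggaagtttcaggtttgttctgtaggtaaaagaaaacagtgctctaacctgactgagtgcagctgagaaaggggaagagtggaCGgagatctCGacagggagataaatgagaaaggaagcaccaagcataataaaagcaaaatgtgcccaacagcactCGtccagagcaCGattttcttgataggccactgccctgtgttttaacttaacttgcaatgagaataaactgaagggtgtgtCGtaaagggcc
Rarb: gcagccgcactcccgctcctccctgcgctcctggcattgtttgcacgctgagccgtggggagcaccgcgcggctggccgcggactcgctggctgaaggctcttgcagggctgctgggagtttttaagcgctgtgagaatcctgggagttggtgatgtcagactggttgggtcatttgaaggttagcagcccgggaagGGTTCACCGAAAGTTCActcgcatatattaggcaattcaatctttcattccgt
Aldh1a1: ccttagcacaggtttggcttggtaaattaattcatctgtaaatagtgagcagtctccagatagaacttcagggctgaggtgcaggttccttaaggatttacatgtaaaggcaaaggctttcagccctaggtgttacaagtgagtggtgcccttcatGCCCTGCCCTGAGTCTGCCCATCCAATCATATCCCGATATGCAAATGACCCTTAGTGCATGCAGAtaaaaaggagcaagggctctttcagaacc
Aldh1a7: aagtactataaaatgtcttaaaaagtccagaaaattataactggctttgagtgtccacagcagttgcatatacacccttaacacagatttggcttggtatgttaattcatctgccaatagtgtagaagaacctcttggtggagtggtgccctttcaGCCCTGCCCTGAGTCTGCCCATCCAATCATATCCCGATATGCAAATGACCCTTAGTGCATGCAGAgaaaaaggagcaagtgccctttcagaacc

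The window of Crabp1 held 12 CpG dinucleotides and that of Adh1 held 5, against a median of 6 over 32841 windows of the same length. Rarb held 16, and Aldh1a1 and Aldh1a7 held 1 each in the windows shown. The 2 windows richest in CpG belonged to genes at or near 0 FPKM in all samples, with 40 in that of Aldh1a2 and 28 in 1 of the 2 windows of Rbp4. The other window of Rbp4 held 5, and Crabp1 and Aldh1a7 were also near 0 FPKM in the untreated samples. CpG content did not order the genes by their level, and methylation itself was not measured. The DR5 element of Rarb starts 53 bases before the start, and 0.0883% of all windows (29 of 32841) hold such an element on either strand. None of the other windows of these genes held a DR5 element, and none of the 9 held one with 2 bases between the half-sites (DR2, in 0.174% of all windows), which says only that these letters are not in the windows. The letters TATAAA, searched on both strands and present in 12.4% of all windows, were found in 1 window of Rbp4, starting 28 bases before the start, and in that of Aldh1a7, starting 244 bases before it. Of the last 100 bases before the starts of Aldh1a1 and Aldh1a7, 94 were equal, and the longest shared run was 65 bases.

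**Figure D1:**
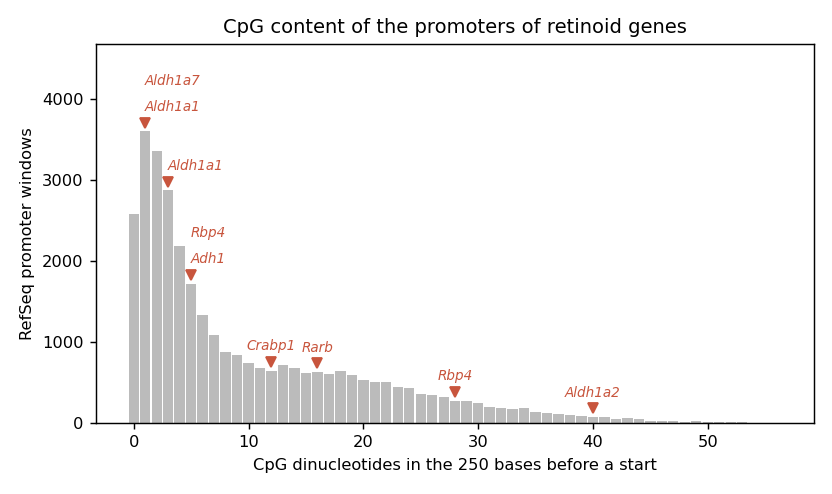
Number of CpG dinucleotides in the 250 bases before a start (x axis) over 32841 RefSeq promoter windows (y axis, number of windows), with the 9 windows of the retinoid genes marked by triangles. Aldh1a1 and Aldh1a7 lie at the CpG-poor end, Crabp1 (12) and Rarb (16) above the median of 6, and Aldh1a2 (40) at the CpG-rich end.

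After 5-AZA, Adh1, Crabp1, Crabp2, Aldh1a3 and Aldh1a7 rose, and none of the 9 genes fell. Crabp1 moved most, from almost nothing to about the level of Crabp2. Adh1 and Crabp2, which the untreated cells already expressed, rose by 7.40 and 8.38 times in the ratio of group means. Rbp4, Aldh1a2 and Rarb stayed at or below 0.103 FPKM (fragments scaled to transcript length and library size) in every sample.

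These calls come from limma on log2(FPKM + 0.1), fitted to the 13199 genes whose 4 values averaged 0.1 FPKM or more. A gene was called where the Benjamini-Hochberg adjusted p-value was below 0.05 and the change over 2-fold. Of all genes tested, 1724 (13.1%) were called higher and 174 (1.32%) lower, or 1041 and 886 after quantile normalization. Of the 9 genes, 6 were tested, 5 were called higher and Aldh1a1 was not called. Both 5-AZA values lay above both untreated values in all 6 tested genes, where 36.8% of all genes tested did so, and in Rarb, which was not tested. Aldh1a3, Aldh1a7 and Crabp1 passed the limit on low values only through the 5-AZA samples and therefore had to differ. Neither their calls nor their lack of overlap add anything to these counts. Adh1, Crabp2 and Aldh1a1 passed on their untreated level alone, and 2 of these 3 were called, against 7.41% called higher of the 12130 genes that passed in this way. In these bulk samples, more cells of a type and more RNA per cell cannot be told apart.

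**Figure D2:**
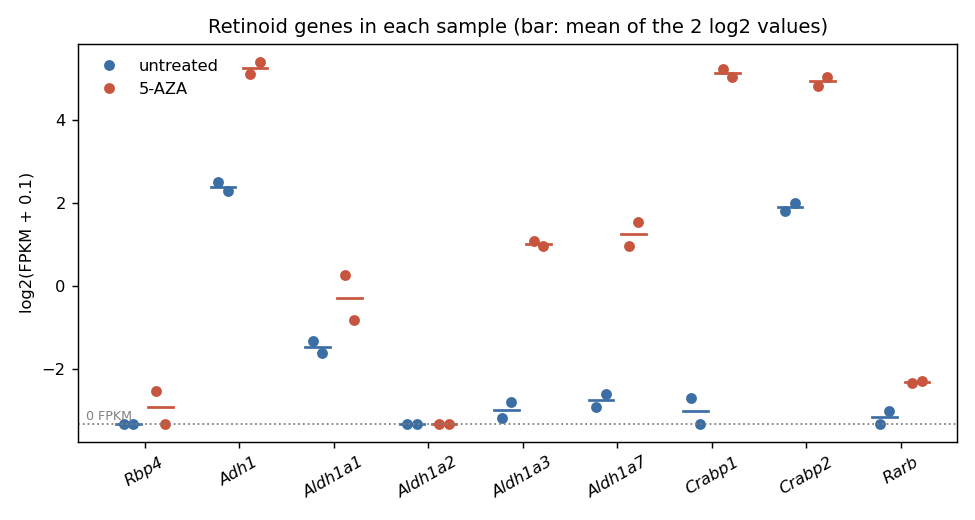
Level of each retinoid gene in each sample on the log2(FPKM + 0.1) scale (y axis), with untreated samples in blue and 5-AZA samples in red (2 samples each). The short bars are the means of the log2 values, and the dotted line is 0 FPKM. The groups overlap for Rbp4 and Aldh1a2 alone, and Adh1, Crabp1 and Crabp2 reach the same range after 5-AZA.

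Of the retinol carrier and the retinol oxidising enzyme, only Adh1 was expressed. Rbp4, which liver and fat cells secrete, was listed at 0 in both untreated samples and in 5-AZA replicate 102, and at 0.0723 FPKM in 5-AZA replicate 101. The value of replicate 101 came from transcript NM_011255.3. This level was under the limit for testing, and the groups overlapped.

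Adh1, the class I alcohol dehydrogenase, was at 5.62 and 4.77 FPKM in untreated replicates 1 and 2 and at 34.5 and 42.4 FPKM in 5-AZA replicates 101 and 102. The groups lay far apart, and the samples within a group differed by 1.18 and 1.23 times. The means were 5.20 ± 0.597 and 38.4 ± 5.58 FPKM (SD, n = 2 in each group). In the fit the rise was log2 2.86 with an SE of 0.14 (limma, adjusted p = 3.21e-06). Adh1 went from above 67.0% to above 93.0% of all genes in its mean level. It lies beside Adh7, the class IV enzyme, which was at 25.4 and 24.3 FPKM in the untreated and at 26.5 and 26.8 FPKM in the 5-AZA samples. Adh7 was not called (limma, log2 fold change 0.10, adjusted p = 0.521). A newly assembled transcript on the same strand, TCONS_00013226 (chr3:138231428-138317730 as listed), runs across Adh1. It was at 13.9 and 14.8 FPKM in the untreated and at 16.1 and 13.01 FPKM in the 5-AZA samples, which overlap. Another such transcript, TCONS_00013224 (chr3:138231418-138299491), was at 4.08 and 0.00997 FPKM in the untreated and at 0.516 and 2.31 FPKM in the 5-AZA samples. Its untreated replicates lay far apart. The authors' quantification can divide reads between these transcripts and Adh1.

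Among the enzymes that oxidise retinal, Aldh1a3 passed the limit on low values only through the 5-AZA samples. Its lack of overlap and its call therefore add nothing to the values themselves. Aldh1a3 was at 0.00933 and 0.0447 FPKM in the untreated samples and at 2.01 and 1.85 FPKM in the 5-AZA samples. Both 5-AZA values lay close together and far above the untreated values. The fit gave log2 4.01 ± 0.32 for 5-AZA over untreated (SE, limma, adjusted p = 3.61e-05), with 1.51 at a pseudocount of 1 FPKM and 5.90 at 0.01 FPKM. Aldh1a2, the enzyme of the early embryo, was listed at 0 in all 4 samples.

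Aldh1a1 and Aldh1a7 are neighbouring, closely related genes, and Aldh1a7 is known for little activity on retinal. Their reads can be divided between the pair, and the values of each are therefore uncertain. Aldh1a1 was at 0.301 and 0.227 FPKM in the untreated samples and at 1.09 and 0.470 FPKM in the 5-AZA samples. The 5-AZA values were both higher but differed from each other by 2.33 times. At log2 1.19 ± 0.40 (SE, limma, adjusted p = 0.0640) the change missed the threshold. It was 0.66 without 5-AZA replicate 101, 1.72 without 5-AZA replicate 102 and 0.05 after quantile normalization, so its size rested on which 5-AZA sample was kept and on the scaling.

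Aldh1a7 was at 0.0331 and 0.0654 FPKM in the untreated samples and at 1.84 and 2.82 FPKM in the 5-AZA samples. The groups did not overlap, and replicate 102 was the higher of the 5-AZA samples here and the lower for Aldh1a1. The fit gave log2 4.0 ± 0.33 for 5-AZA over untreated (SE, limma, adjusted p = 4.49e-05), with 1.65 and 5.33 at the same pseudocounts. A division of reads within the pair bears less on the sum of Aldh1a1 and Aldh1a7. It was 0.334 and 0.292 FPKM in the untreated and 2.94 and 3.29 FPKM in the 5-AZA samples, a ratio of means of 9.95. Over all 4 Aldh1a genes the sum went from 0.340 ± 0.00454 to 5.04 ± 0.131 FPKM (SD, n = 2). Aldh1a1 made up 87.6% and 67.3% of this sum in the untreated samples and 22.1% and 9.16% in the 5-AZA samples.

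The binding proteins held the largest levels of the 9 genes together with Adh1. Crabp1 was at 0.0535 FPKM in untreated replicate 1, was listed at 0 in untreated replicate 2, and was at 37.8 and 33.0 FPKM in the 5-AZA samples. It was thus barely detected in the untreated cells and above 92.4% of all genes after 5-AZA. The fit gave log2 8.16 ± 0.26 for 5-AZA over untreated (SE, limma, adjusted p = 3.13e-07). Its size depends on the pseudocount, with 5.15 at 1 FPKM and 10.45 at 0.01 FPKM. Of the 2 transcripts of Crabp1, NM_013496.3 held 96.7% of the 5-AZA level. NM_001284507.1 was listed at 0 in the untreated samples and at 0.818 and 1.53 FPKM in the 5-AZA samples, and was not called in the fit of 35557 transcripts, of which 2.1% were called higher and 2.36% either way (adjusted p = 0.0595, limma).

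Crabp2 was at 3.43 and 3.90 FPKM in the untreated samples and at 28.5 and 32.9 FPKM in the 5-AZA samples. The means were 3.67 ± 0.331 and 30.7 ± 3.08 FPKM (SD, n = 2). In the fit the rise was log2 3.03 with an SE of 0.14 (limma, adjusted p = 1.91e-06). The summed level of both binding proteins was 3.49 and 3.90 FPKM in the untreated and 66.4 and 65.9 FPKM in the 5-AZA samples. Crabp1 made up 1.53% and 0% of this sum in the untreated samples and 57.0% and 50.1% in the 5-AZA samples.

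Rarb, the receptor whose promoter holds the DR5 element, was listed at 0 and at 0.0237 FPKM in the untreated samples and was at 0.0961 and 0.103 FPKM in the 5-AZA samples. The 5-AZA values were above the untreated ones, but the mean over the 4 samples was below the limit for testing. Without that limit the log2 fold change was 0.84 (adjusted p = 0.0632, limma over 17510 genes). Each of its 4 transcripts stayed at or below 0.0452 FPKM, the highest being NM_001289762.1 of variant beta4. The transcript of variant beta2, NM_011243.2, was at 0.0158 and 0.0176 FPKM in the 5-AZA samples.

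**Figure D3:**
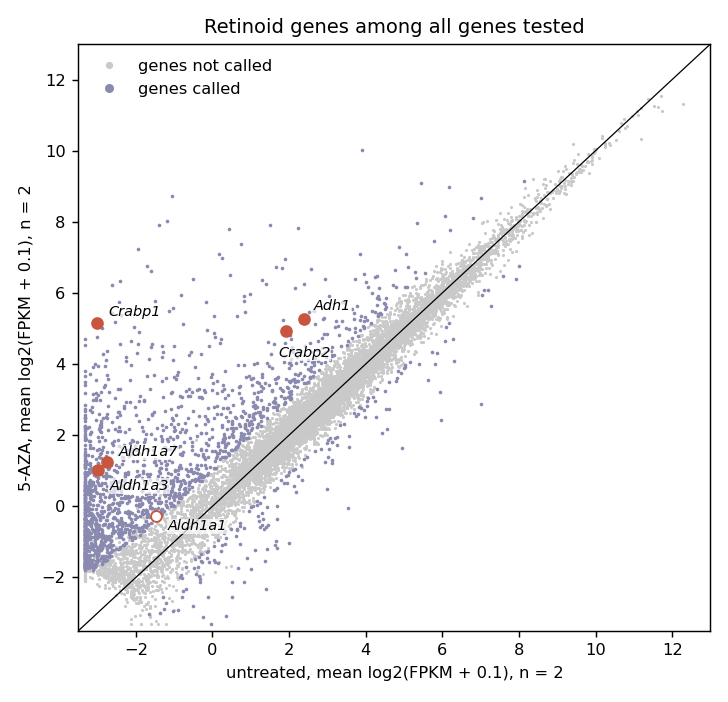
Mean log2(FPKM + 0.1) of the 2 untreated samples (x axis) and the 2 5-AZA samples (y axis) for the 13199 genes tested, with the 6 tested retinoid genes as large circles (filled where called) and the line of equal levels. Crabp1, Aldh1a3 and Aldh1a7 lie at the left edge, where untreated levels are close to 0, Adh1 and Crabp2 lie side by side, and Aldh1a1 is an open circle.

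In the 5-AZA samples the order of the mean levels per transcript length was Adh1, Crabp1, Crabp2, Aldh1a7, Aldh1a3, Aldh1a1, Rarb, Rbp4 and Aldh1a2. The ranges of Adh1 and Crabp1 overlapped, as did those of Aldh1a7 and Aldh1a3, so the order within these pairs is not beyond the spread. Crabp2 stopped at 32.9 FPKM, just under the 33.0 FPKM of the lower Crabp1 value. In the untreated samples the order was Adh1, Crabp2 and Aldh1a1, whose ranges did not overlap, and then Aldh1a7, Aldh1a3, Crabp1 and Rarb, whose neighbours overlapped.

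For each tested gene the 2 genes nearest in their 4 log2(FPKM + 0.1) values were taken by Euclidean distance. They were Medag (distance 0.229) and Col15a1 (0.286) for Adh1, and Hormad1 (0.274) is the one given for Aldh1a3. For Aldh1a7 they were Kng2 (0.138) and Fam213a (0.283), and for Aldh1a1 Tnfrsf14 (0.392) and Adamts6 (0.398). For Crabp1 they were Myh3 (0.647) and Gm14149 (0.739), and for Crabp2 Ifit3b (0.522) and Tnni1 (0.633). With 4 samples in 2 groups, such a distance says little more than that both the untreated and the 5-AZA levels are alike.

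The further genes of the pathway are given by step, and each count can be read against the 13.1% of all genes tested that were called higher and the 1.32% called lower. Genes below the limit in the untreated samples could be tested only where 5-AZA raised them, so their calls are no support for a list. Among the genes for uptake, transport and storage, 3 of 7 tested rose and 1 fell, and the median change was log2 1.27 (0.88 after quantile normalization), against 0.047 over all genes tested. Of the 3 that rose, 1 was tested only through the 5-AZA samples. Lpl, a lipoprotein lipase better known from fat cells, rose from 2.55 to 76.7 FPKM, and Rarres2, the secreted protein chemerin, from 11.7 to 52.4 FPKM. Rarres2 was placed in this list, but chemerin is not known to take up, carry or store retinoids. The count and the median of the list include it. Rpe65, the isomerase of the visual cycle, fell from 3.09 to 1.28 FPKM. Stra6, the receptor for Rbp4, and Lrat, which makes retinyl esters, stayed at or below 0.0148 FPKM, and Ttr, the partner of Rbp4 in plasma, was listed at 0 in all 4 samples.

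Among the other enzymes that interconvert retinol and retinal, 2 of 17 tested (11.8%) rose and none fell, a share near that of all genes. The median change was log2 0.40, or 0.08 after quantile normalization. The short-chain dehydrogenase Dhrs9 rose from 0.406 to 1.88 FPKM and Rdh12 from 0.543 to 1.78 FPKM. Dhrs3, which reduces retinal, had an adjusted p of 0.00159 (limma) at a log2 fold change of 0.90, below the 2-fold required. Rdh10, the main retinol dehydrogenase of the embryo, was at 4.16 and 2.79 FPKM in the untreated and at 2.81 and 4.02 FPKM in the 5-AZA samples, which overlap.

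On the side of removal, Cyp26b1, which hydroxylates retinoic acid, fell. It was at 2.99 and 3.22 FPKM in the untreated and at 0.416 and 0.288 FPKM in the 5-AZA samples (limma, log2 fold change -2.84, SE 0.26, adjusted p = 7.93e-05). It was the only call among the 3 genes tested for synthesis and removal, whose median change was log2 0.31, or -0.34 after quantile normalization. Cyp26a1 and Cyp26c1 were below the limit for testing.

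Of the receptors, their partners and cofactors, 1 of 13 tested (7.69%) was called, and the median change was log2 0.11, or -0.11 after quantile normalization. This was Fabp5, a fatty acid binding protein that can also carry retinoic acid, which rose from 19.2 to 88.0 FPKM. Rarg was at 23.3 and 19.6 FPKM in the untreated and at 16.4 and 17.1 FPKM in the 5-AZA samples (adjusted p = 0.0720, limma), and Rara at 5.86 and 5.38 against 7.52 and 8.30 FPKM (log2 fold change 0.49). Both lay far above Rarb in every sample.

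Among genes long used as targets of retinoic acid, 3 of 12 tested were called higher and none lower. The median change was log2 0.55, or -0.07 after quantile normalization. In both 5-AZA samples 6 of the 12 were higher, where 36.8% of all genes tested were, and Meis1, Meis2 and Hoxa4 were lower. Pck1 and Stra8, counted in these 6 and in the median, were tested only through the 5-AZA samples. Their lack of overlap therefore adds nothing to this count, and 10 of the 12 passed the limit on their untreated level alone. Meis2, the highest of the 12, was at 18.8 and 17.6 against 12.1 and 13.2 FPKM (log2 fold change -0.52, adjusted p = 0.0123, limma). Tgm2, a transglutaminase, rose from 0.397 to 4.62 FPKM and Rarres1 from 0.110 to 1.11 FPKM. Pck1, an enzyme of glucose and glycerol synthesis, was at or below 0.0112 FPKM in the untreated and at 0.379 and 0.945 FPKM in the 5-AZA samples (adjusted p = 0.00240, limma), through which alone it was tested. Hoxb1, Hoxb4, Hoxb5 and Hoxd4 were listed at 0 in all samples.

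**Figure D4:**
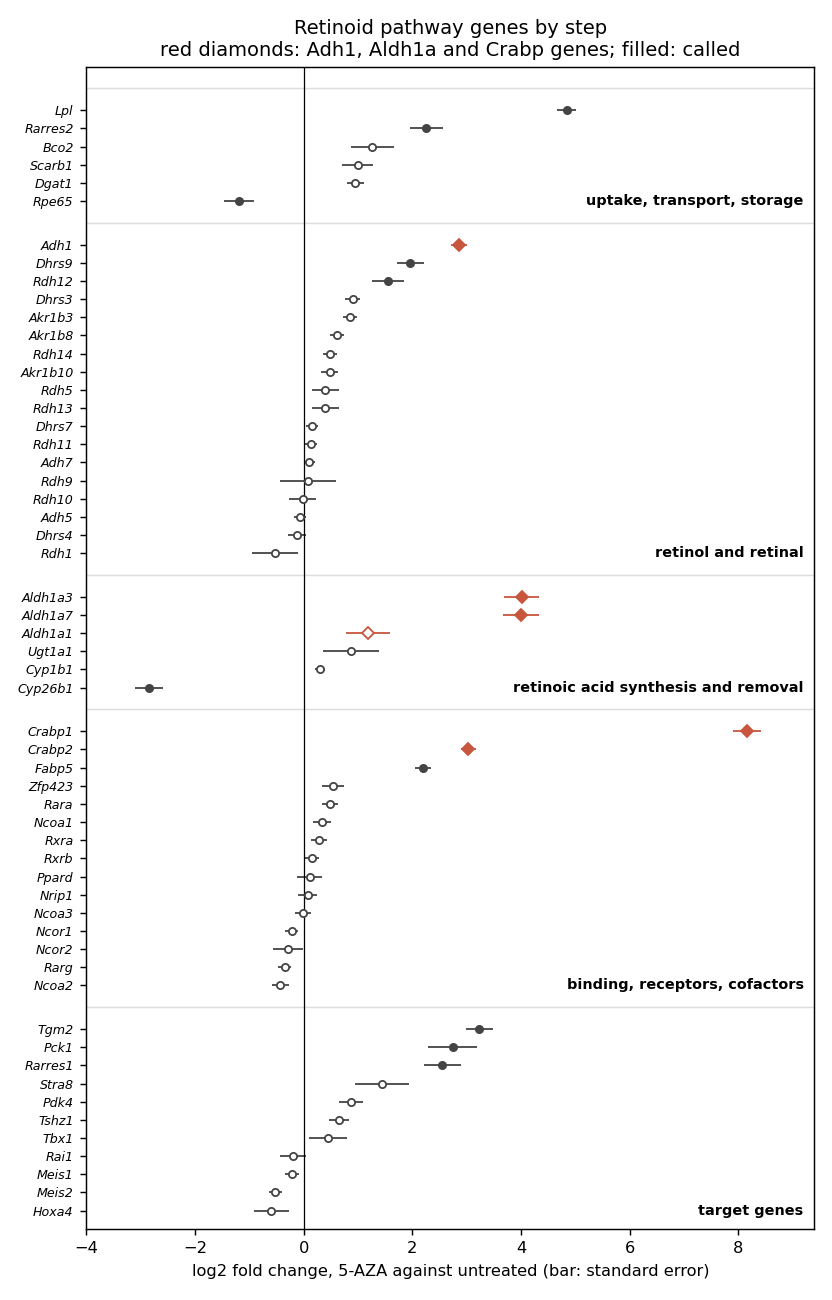
Log2 fold change between 5-AZA and untreated samples (x axis, bars show the standard error from limma) for tested genes of the retinoid pathway, grouped by step, with 2 samples in each group. Adh1, the Aldh1a genes and the Crabp genes are red diamonds, other genes are dark circles, and filled symbols were called. Crabp1 stands at 8.16 and Cyp26b1 at -2.84, while most dehydrogenases and receptors lie near 0.

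The relatives of these genes were compared in the same way. Of 14 tested aldehyde dehydrogenases with other substrates, 4 (28.6%) were called higher, against 13.1% of all genes tested, and none lower. Their median change was log2 0.38. Aldh1l1 and Aldh3b2, 2 of these 4, were tested only through the 5-AZA samples. Aldh1l1, which acts on a folate, rose from 0.0797 to 1.93 FPKM, Aldh3a1 from 3.41 to 9.59 FPKM and Aldh4a1, an enzyme of proline breakdown, from 1.90 to 4.30 FPKM. The most abundant one, Aldh2, was at 27.9 and 27.8 FPKM in the untreated and at 31.6 and 32.4 FPKM in the 5-AZA samples (adjusted p = 0.187, limma). Of the fatty acid binding proteins, relatives of Crabp1 and Crabp2, 3 of 7 were tested and all 3 were called, Fabp3 tested only through the 5-AZA samples. Fabp4 of fat cells rose from 16.3 to 1041 FPKM and Fabp3 of muscle from 0.0349 to 4.68 FPKM, while Pmp2, a myelin protein, fell from 3.02 to 0.372 FPKM.

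Markers of several cell types moved between the same groups. Of all genes tested, 13.1% were called higher and 1.32% lower. All 10 mesenchymal markers were above the limit for testing, with a summed level of 8947 and 8991 FPKM in the untreated and 6001 and 5884 FPKM in the 5-AZA samples. S100a4 (5014 and 2556 FPKM in the group means) and Vim (2337 and 1279 FPKM) carried this difference, while 6 of the 10 were higher in both 5-AZA samples and 1, Thy1, was called higher. Of 10 skeletal muscle markers all 10 were called higher, 7 of them tested only through the 5-AZA samples, and their sum went from 1.33 and 1.28 to 804 and 1230 FPKM. Of 10 fat cell markers 9 were tested and 8 were called higher, 2 of them tested only through the 5-AZA samples. The 10 summed to 25.6 and 22.9 FPKM against 239 and 343 FPKM, and Lep was at or below 0.0274 FPKM. Of 10 epithelial and mesothelial markers 7 were tested and 5 were called higher, 4 of them tested only through the 5-AZA samples. The 10 summed to 1.56 and 1.53 FPKM against 25.4 and 30.5 FPKM. Krt8, Krt18 and Msln made up most of this, while Wt1 was listed at 0. Cdh1 was not called and was lower in both 5-AZA samples, at 0.500 and 0.497 FPKM against 0.157 and 0.367 FPKM. Lrrn4 overlapped, at 0.520 and 0.593 FPKM against 0.424 and 0.701 FPKM. The part of these cell types in the changes of the retinoid genes was not tested. The 10 liver cell markers summed to 0.520 and 0.952 FPKM in the untreated and 0.858 and 0.652 FPKM in the 5-AZA samples. Of these, 2 were tested, with 1 called higher (Ahsg, tested only through the 5-AZA samples) and 1 lower (Apoh). Alb was at or below 0.120 FPKM and Apoa1 was listed at 0. Of 10 neural markers 5 were tested, with 2 called higher (Gfap and Sox10, the latter tested only through the 5-AZA samples) and 1 lower. The 10 summed to 11.6 and 12.4 against 17.7 and 24.4 FPKM, and Elavl3 and Snap25 were listed at 0. Of 10 immune markers 3 were tested, with 2 called higher (Cd68 and Cd79a, the latter tested only through the 5-AZA samples). The 10 summed to 2.13 and 3.20 against 3.57 and 5.38 FPKM, and Adgre1 and Cd3e were listed at 0.

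**Figure D5:**
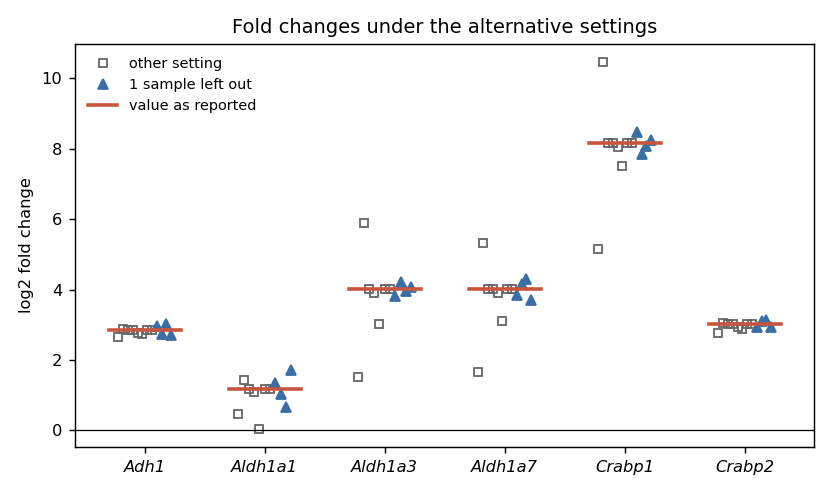
Log2 fold change (y axis) of the 6 tested retinoid genes as reported (red bar), with 1 of the 4 samples left out (blue triangles) and under the other settings (grey squares). Adh1 and Crabp2 stay within 2.67 to 3.13, Crabp1 ranges from 5.15 to 10.45 with the pseudocount, and Aldh1a1 comes close to 0 after quantile normalization.

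None of the 9 genes is listed as the host of any of the 4295 circRNAs. Within 5000 bases of the 9 genes 125 lncRNA transcripts are listed, 87 of them at Rarb, and 15 had a mean of at least 0.1 FPKM. At Rarb, NONMMUT019729.2 was the highest of them, at 3.18 and 2.68 FPKM in the untreated and at 2.40 and 2.02 FPKM in the 5-AZA samples, well above the mRNA itself. No lncRNA was listed within this distance of Crabp1 or Aldh1a3.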

How the data were processed

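RNA from 2 untreated and 2 5-AZA samples was analysed, and all 4 samples entered every fit. The authors prepared stranded libraries without ribosomal RNA, trimmed the reads with Trimmomatic and deposited FPKM values per mRNA and lncRNA transcript. The submitters' processing notes also name HISAT2, Bowtie2 2.2.9, eXpress 1.5.1 and the build mm9, without their roles. The listed positions match GRCm38 instead, since 2107 of 2131 circRNA host genes lay within the GRCm38.p6 gene (tolerance 1000 bases). Read counts cannot be had from FPKM, and depth is unknown.

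FPKM sums per sample were 328410 to 361664, and 10298 to 11124 genes reached 1 FPKM. Transcripts were summed per gene, and log2(FPKM + 0.1) of genes averaging 0.1 FPKM or more entered limma 3.58.1 (lmFit, then eBayes with its trend option) under R 4.3.3. Adjustment by Benjamini and Hochberg's approach covered all genes tested. The added 0.1 makes fold changes of low genes too small. The package named in the study's methods models read counts, so limma on the log scale was used in its place. The fit was tested on simulated data. With 2 samples against 2, the smallest two-sided p of an exact permutation test is 0.333, and none is given. Promoter windows came from RefSeq and were read with Python 3.11.15 and pandas 2.3.3. Figures were drawn with matplotlib 3.10.9.

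The 9 genes, the pathway lists and the marker lists were chosen with earlier results of these data known. Genes named are the 9 genes, up to 4 of each pathway list with the largest change among calls whose groups did not overlap and that reached 1 FPKM, and the 2 nearest genes of each tested gene. Other genes named from the lists, the summed levels and the lncRNAs were chosen after their values were seen. Rbpr2, Rbp5 and Bcmo1 were not found under these names. Other pseudocounts, limits, scalings, eBayes without trend, curated transcripts alone and the omission of each sample were tried as alternatives. Some genes of the lists are counted but not reported here by name. Protein sequences were not used here.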

Additional observations from a re-analysis of the deposited data

Results flagged for a closer look

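2 lncRNAs near these genes, outside the mRNA measurement, were higher in both 5-AZA samples than in both untreated samples, as were 14.6% of the 24075 lncRNAs with a mean of at least 0.1 FPKM. NONMMUT147449.1 (chr3:87944188-87945395 as listed, + strand), near Crabp2, was at 0.205 and 0.227 FPKM in the untreated and at 0.297 and 0.889 FPKM in the 5-AZA samples. NONMMUT093919.1 (chr14:16946827-16947693, - strand), within Rarb, was at 0.0667 and 0.0654 against 0.131 and 0.141 FPKM. Of the 15 lncRNAs of this level near the 9 genes, these were 2, and 2 others were lower in both 5-AZA samples. The share of all lncRNAs lower in both 5-AZA samples was not computed, so the latter count has nothing to be read against.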

How the results depend on the processing

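Adh1, Aldh1a3, Aldh1a7, Crabp1 and Crabp2 were called higher under every alternative in which they were tested, and Aldh1a1 under none. Wherever a limit on low values was set, Aldh1a3, Aldh1a7 and Crabp1 could pass it only through the 5-AZA samples. Their repeated calls in those settings are therefore no support. With a limit of 1 FPKM, 4 of these genes (Adh1, Aldh1a7, Crabp1 and Crabp2) were tested and all 4 were called. Aldh1a7 and Crabp1, with untreated means of 0.0493 and 0.0267 FPKM, passed this limit only through the 5-AZA samples. Their calls therefore add nothing to this count, while Adh1 and Crabp2 passed on their untreated level alone. Of the 10800 genes tested at this limit, 845 were called higher. Without any limit Rbp4 had a log2 fold change of 0.39 and Rarb one of 0.84, and neither was called. Genes called higher over the whole table numbered 1724, against 875 with a pseudocount of 1 FPKM, 845 with a limit of 1 FPKM and 1041 after quantile normalization. They numbered 925 without 5-AZA replicate 101, 733 without 5-AZA replicate 102, and up to 1617 with another sample left out. Genes called lower numbered 174, against 86 with a pseudocount of 1 FPKM, 83 without the limit, 886 after quantile normalization, 52 without 5-AZA replicate 101, 70 without 5-AZA replicate 102 and up to 184 with another sample left out. A sample left alone in its group was assumed to vary like the other group.

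Transcripts were called less stably, with 745 higher and 93 lower. Without the limit 0 were called (limma, with 5608 above and 2646 below at unadjusted p-values under 0.05), and 0 without 5-AZA replicate 101 (3804 and 1732) or 102 (2878 and 2174). Without untreated replicate 1 or 2 these were 175 and 103 higher, and 2 lower in each case. Transcripts called lower were 60 with a pseudocount of 0.01 FPKM, 164 after median centring of the samples and 51 by eBayes without trend. Centring and quantile normalization took the median log2 fold change of all genes from 0.047 to -0.060 and -0.12, and that of the 3 genes for synthesis and removal of retinoic acid from 0.31 to 0.20 and -0.34. No cause of these differences was tested. No paired analysis was possible because the groups share no replicate numbers. With 2 samples a group and no read counts, a gene that was not called has not been shown to be unchanged.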
